A study of Mus musculus with 6 samples.

Results

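The genes described here serve, or have been proposed to serve, the chloride current of olfactory cilia and the chloride store that feeds it. They are 8 genes chosen by name: Ano2, Ano1 and Best2 for the channel, Slc12a2 and Wnk1 for chloride uptake, Stoml3 as a protein of the ciliary membrane, and Clcn3 and Slc4a1ap as chloride-related genes of the cell interior. Every probe set that the platform annotation pairs with exactly 1 of them was taken. That gave 17 of the 45101 probe sets on the array, for 7 of the 8 genes, out of 18194 genes that the annotation names. The annotation used here names no probe set for Ano2, so no level of Ano2 is given. Of the 17 probe sets, 15 were bright enough to be tested, and the other 2, for Best2 and Wnk1, are given by their signals.

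RNA of the olfactory epithelium, the odour-sensing lining of the nose, was hybridised to Affymetrix mouse expression arrays. There were 3 arrays from mice homozygous and 3 from mice heterozygous for OMP-GFP, and all 6 samples carry at least 1 copy of that allele. As background, OMP-GFP is a knock-in in which green fluorescent protein replaces the coding sequence of Omp, the gene of olfactory marker protein, and is driven by the Omp promoter in mature olfactory neurons. Homozygous mice therefore lack olfactory marker protein, while heterozygous mice keep 1 intact allele and carry fewer GFP copies. There was no wild-type group, so loss of olfactory marker protein and GFP dosage cannot be told apart. The labels state neither age, sex and strain of the animals nor whether RNA was pooled, and the p-values measure the spread between these samples, which may be technical.

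An odorant bound to its receptor activates the G protein of olfactory cilia and adenylyl cyclase, and cyclic AMP then opens a cation channel that admits calcium. Calcium opens a chloride channel, formed mainly by anoctamin 2, the product of Ano2. Because the neuron holds much chloride inside, chloride leaves through that channel and enlarges the depolarisation. The cotransporter NKCC1, encoded by Slc12a2, loads the cell with chloride, and WNK kinases such as Wnk1 switch it on through the kinases encoded by Stk39 and Oxsr1. Olfactory marker protein has been linked to the speed of the odour response in the same cilia, and the comparison asks whether transcript levels of this machinery differ with its gene dose.

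The libraries were first set against their labels and against one another. At Omp probe set 1422199_at the signals were 5.7, 8.8 and 31.3 in homozygous 1, 2 and 3. They were 26.3, 4663.8 and 9143 in the libraries labelled heterozygous 1, 2 and 3. The library labelled heterozygous 1 thus lay with the homozygous arrays there, while at the other Omp probe set, 1422200_at, the groups overlapped. The position of these probe sets against the deleted coding sequence is not known here, so neither settles whether a label is right. The library labelled heterozygous 1 had a summed signal of glial and myelin markers of 14019.7, beside 2810.6 to 3516.9 on the other arrays. The rise was largest at Mbp (7268.5) and Pmp22 (4898.6). Sox10 read 444.6 in that library, below homozygous 3 (505.1) and heterozygous 2 (456.7). Heterozygous 3 had a summed signal of olfactory bulb and brain neuron markers of 3126.9, beside 1210.7 to 1516.5 elsewhere. Eomes, of the same list, went the other way and read 205.2 in heterozygous 3, beside 310.5 to 510 elsewhere. The median signal lay between 147.9 and 163.7, and the 3-prime to 5-prime ratio of the Gapdh control between 0.705 and 0.755.

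No probe set of the chloride genes passed adjustment between the groups. In limma 0 of the 15 tested had an adjusted p under 0.05, beside 0% of the 22514 probe sets tested over the whole array, and the unmoderated test per probe set also called 0. A single one of the 15, a probe set of Slc12a2, had an unadjusted p under 0.05, beside 5.73% of all probe sets tested. The 2 groups did not overlap at 2 of the 15, in both cases higher in homozygous arrays, beside 5.93% of all probe sets in that direction, 5.01% in the other and 10.9% in either. In either direction both shares for the chloride genes, 6.67% and 13.3%, are near the background. In the higher direction alone they stand beside 3.34% and 5.93%, but 1 and 2 probe sets are too few to judge. The count at an unadjusted p under 0.05 was 0 without homozygous 1 or without homozygous 2, and 3 without homozygous 3 or without heterozygous 3. It was not the same probe set throughout, since it was Stoml3 1447847_x_at with the library labelled heterozygous 1 left out and Clcn3 1433487_at with heterozygous 2 left out. Over the whole array 25 probe sets passed without the library labelled heterozygous 1, 1 passed without homozygous 3, and no chloride gene was among them. Omp 1422199_at did pass without the library labelled heterozygous 1, with a log2 difference of -6.96 and a limma adjusted p of 4.9e-06. With all arrays its limma adjusted p was 0.859.

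The differences were small and mostly of 1 sign. On the log2 scale, homozygous minus heterozygous, 14 of the 15 were above 0, with a median of 0.10 and a range from -0.02 to 0.27. Over all probe sets tested 53.6% were above 0, with a median of 0.01. With all arrays shifted to a common median, 12 of 15 chloride probe sets and 39.3% of all probe sets were above 0, and the medians were 0.06 and -0.03. Several of the 15 belong to the same gene, 5 of them to Clcn3, so they are not independent of one another. Markers of vessels, 6 of 6 on the array and 4 of them bright enough to be tested, were all higher in homozygous arrays. Their sums were 13910.9 to 14077 in homozygous and 12778.3 to 13622.9 in heterozygous arrays. Macrophage markers, 8 of 8 on the array and all bright enough to be tested, had 7 higher in homozygous arrays. Their sums of 7573.3 to 8380.3 in homozygous and 6987.7 to 7580 in heterozygous arrays overlapped. The part of these markers in the differences of the chloride genes was not tested. In bulk tissue, fewer cells of a type and less RNA per cell cannot be told apart, and this holds for every value given here.

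**Figure D1:**
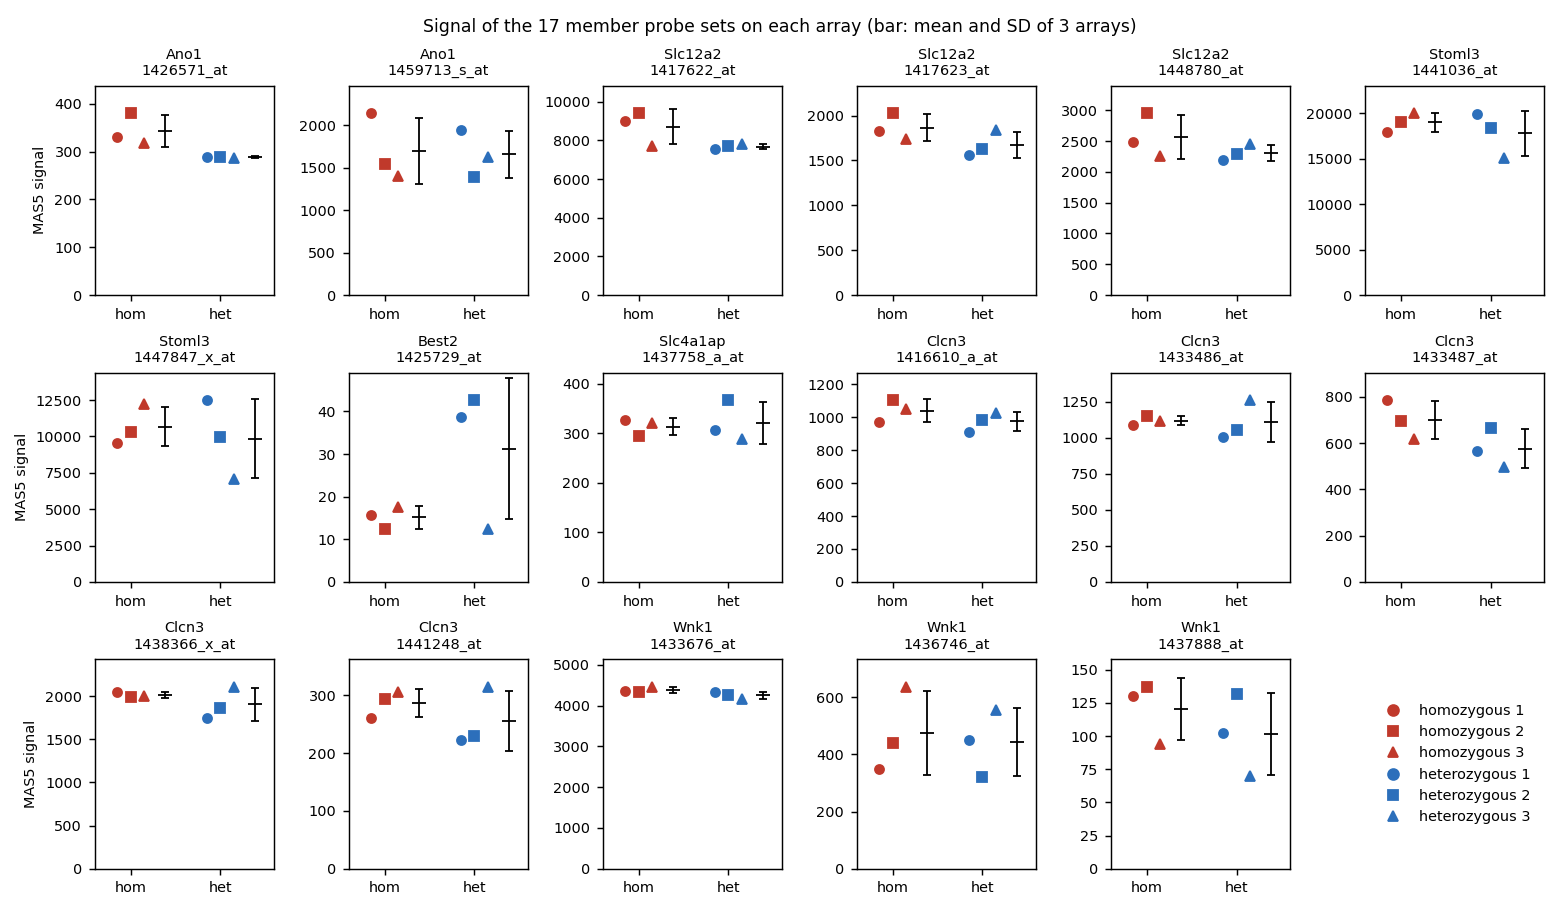
MAS5 signal (vertical axes, linear, from 0) of each of the 17 probe sets on the 3 homozygous (red) and 3 heterozygous (blue) arrays, with the symbol giving the replicate number and black bars the mean and SD of each group (n = 3). The groups are separated only at Ano1 1426571_at and Wnk1 1433676_at, and Best2 1425729_at lies at 12.3 to 42.7 on every array.

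The channel genes came first. Ano1 encodes anoctamin 1, the calcium-activated chloride channel of many secretory epithelia and of smooth muscle and the closest relative of anoctamin 2. Probe set 1426571_at read 330.1, 380.7 and 318.7 in homozygous 1, 2 and 3, and 289.5, 289.3 and 286.4 in the heterozygous arrays in the same order. Every homozygous array lay above every heterozygous array, and the heterozygous values were almost equal. The means were 343 ± 33.0 and 288 ± 1.74 (SD, n = 3 each), and the difference was 0.22 ± 0.11 on the log2 scale (SE), with a 95% interval from -0.03 to 0.47 and a limma adjusted p of 0.89.

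The other probe set of Ano1, 1459713_s_at, did not show this. The suffix _s_at marks probes that can match more than 1 transcript, which makes its signal less specific. It read 2141.8, 1544.2 and 1403.6 in homozygous arrays and 1947.7, 1392.4 and 1628.9 in heterozygous ones. Homozygous 1 and the library labelled heterozygous 1 were the highest of their groups, and the groups overlapped. The difference was 0.02 ± 0.16 on the log2 scale (SE), with an interval from -0.32 to 0.37. It turned to -0.15 without homozygous 1, to -0.092 without heterozygous 2 and to -0.019 with a common median, so its direction is not settled. Markers of Bowman and nasal glands, a site of secretory chloride channels, numbered 11 on the array, all but Prol1 bright enough to be tested. Their summed signals were 123668.3 to 134832.8 in homozygous and 107008.5 to 136588.7 in heterozygous arrays. Of the 11, 10 were higher in homozygous arrays. These include Prol1, which read only 1.7 to 36.3, and Bpifb9b, with a log2 difference of 0.0014. The part of the gland markers in the Ano1 values was not tested.

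Best2 encodes bestrophin 2, a calcium-activated anion channel that was once proposed as the olfactory chloride channel before anoctamin 2 was identified. Its only probe set, 1425729_at, read 15.7, 12.3 and 17.6 in homozygous arrays. The heterozygous signals were 38.8, 42.7 and 12.3 for replicates 1, 2 and 3. The signals overlapped between groups and lay below the filter, which corresponds to a signal of about 155, so Best2 was not tested and no fold is given. At such signals the probe set gives only that Best2 was dim on all 6 arrays.

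Slc12a2, the gene of the cotransporter NKCC1, had 3 probe sets, all matched to the same accession, and all differed in the same direction. The brightest, 1417622_at, read 9006.4, 9419.8 and 7707.1 in homozygous arrays and 7540.8, 7691.7 and 7816.7 in heterozygous ones. Homozygous 1 and 2 lay above every other array, while homozygous 3 lay among the heterozygous values. The means were 8711 ± 894 and 7683 ± 138 (SD, n = 3 each). The difference was 0.18 ± 0.08 on the log2 scale (SE), a 1.13-fold ratio, with an interval from 0.0084 to 0.34. Its unadjusted p was 0.0412 in limma and its adjusted p 0.869, so it did not pass. The unadjusted p was 0.108 without the intensity trend, 0.0714 without heterozygous 2 and 0.0908 with the library labelled heterozygous 1 left out.

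At the other probe sets of Slc12a2 the picture was similar but smaller. Probe set 1417623_at read 1825.5, 2028.2 and 1743 in homozygous and 1557.7, 1624.9 and 1839.6 in heterozygous arrays, a log2 difference of 0.15 ± 0.09 (SE). Probe set 1448780_at read 2480.8, 2956.1 and 2260.1 against 2185.7, 2297.7 and 2450.7, a difference of 0.14 ± 0.10 (SE). Homozygous 2 was the highest array and the library labelled heterozygous 1 the lowest at all 3 probe sets, and the groups overlapped at each. Without homozygous 2 the differences were 0.12, 0.093 and 0.036 in the order given. Without homozygous 3 they were 0.26, 0.20 and 0.23. No alternative turned the sign at any of the 3 probe sets, and none brought 1 of them past adjustment.

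Among all other probe sets with 1 gene name, those whose pattern over the 6 arrays lay closest to Slc12a2 1417622_at belonged to Tusc3, Nat8f4 and Sepsecs. Likeness was the root mean square difference of log2 values, each centred on its mean over the 6 arrays, over 19742 candidates. It was 0.031 for Tusc3, 0.032 for Nat8f4 and 0.033 for Sepsecs, and 0.065 and 0.074 for the other probe sets of Slc12a2 itself. With 19742 candidates on 6 arrays, the closest of them are likely to lie very near. Their order against the other probe sets of Slc12a2 therefore carries little. No likeness was sought for Ano2, which had no probe set.

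Wnk1 encodes a kinase that senses chloride and, through Stk39 and Oxsr1, activates NKCC1. Its brightest probe set, 1433676_at, was the steadiest of the 15. It read 4360.6, 4334.1 and 4462.7 in homozygous and 4329.9, 4264.7 and 4165.3 in heterozygous arrays, a spread of 1.07-fold from the lowest to the highest. The groups did not overlap, but by a margin of a few signal units, from 4329.9 to 4334.1. The difference was 0.04 ± 0.06 on the log2 scale (SE), with an interval from -0.09 to 0.18 and a limma adjusted p of 0.957. Its range over the arrays, 0.099 on the log2 scale, stood at percentile 1.16 of the ranges of all probe sets tested, whose median was 0.36.

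The other probe sets of Wnk1 were dimmer and far more variable. Probe set 1436746_at read 348.6, 438.2 and 636.3 in homozygous and 449.5, 319.4 and 556.4 in heterozygous arrays. Replicate 3 was the highest of each group, and the values spread 1.99-fold with full overlap. Its difference of 0.09 ± 0.21 (SE) turned to -0.13 without homozygous 3 and to -0.11 without heterozygous 2. Probe set 1437888_at, below the filter, read 129.9, 137.1 and 94 against 102.3, 131.7 and 69.8. Heterozygous 3 was the lowest array there, whereas it was among the higher ones at 1436746_at, so these probe sets do not follow one another.

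Stoml3 encodes a stomatin-related membrane protein of olfactory neuron cilia and of touch-sensing neurons. Probe set 1441036_at read 17969.6, 18987.6 and 20030.7 in homozygous 1, 2 and 3. The heterozygous arrays read 19961.5, 18344.3 and 15125.1 in that order. Heterozygous 3 stood below all other arrays, and the remaining values of the groups overlapped. The difference was 0.10 ± 0.09 on the log2 scale (SE), with an interval from -0.10 to 0.30 and a limma adjusted p of 0.916.

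The second Stoml3 probe set, 1447847_x_at, ordered the extreme arrays in nearly the same way over a wider span. The suffix _x_at marks a set in which some probes can match other transcripts. It read 9527.9, 10311.8 and 12196.7 in homozygous arrays, and 12508.7, 9961.9 and 7061.2 in heterozygous ones. The library labelled heterozygous 1 was the highest array and heterozygous 3 the lowest, a 1.77-fold span inside 1 group. The difference was 0.15 ± 0.17 on the log2 scale (SE). Without heterozygous 3 it was -0.071, and that of 1441036_at was -0.012. Without the library labelled heterozygous 1 the differences were 0.34 and 0.19. The direction at Stoml3 thus turned on which heterozygous array was left out.

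The summed signal of markers of mature olfactory neurons was extreme on the same heterozygous arrays as Stoml3. Of 12 such markers, 6 of which are also genes of the transduction list below, 10 were on the array. Of these, 9 were above the filter and 5 were higher in homozygous arrays. Their summed signal was 62614.4 to 64143.3 in homozygous arrays. For heterozygous replicates 1, 2 and 3 the sums were 67693.4, 62402.9 and 55591.3. The highest and the lowest array were thus those of 1447847_x_at. Single markers did not all follow the sum. Cnga2, Adcy3, Gnal, Gng13 and Ric8b, all on the transduction list, were lowest in heterozygous 3. Slc17a6 (2724.5), Calb2 (8524.2) and Ebf2 (6073.3) were highest in that array, and Umodl1 and Cngb1 were neither. In heterozygous 3 the sum of olfactory bulb and brain neuron markers was the highest, as given above, and that of sustentacular cell markers, 53642.8, was the lowest, beside 55091.6 to 59541.1 elsewhere. The part of these markers in the Stoml3 values was not tested. Markers of immature olfactory neurons, 8 of 8 on the array and all above the filter, were all lower in homozygous arrays. Their sums were 41142.8 to 41505.3 in homozygous and 43521.6 to 44895 in heterozygous arrays.

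**Figure D2:**
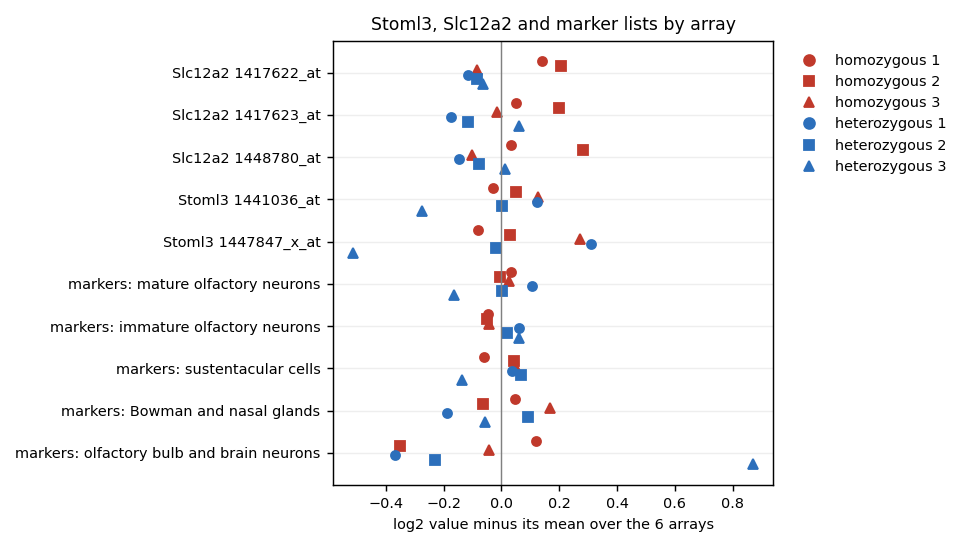
Log2 value minus its mean over the 6 arrays (horizontal axis) for the probe sets of Slc12a2 and Stoml3 and for the mean of 5 marker lists, with red symbols for homozygous and blue for heterozygous arrays and the symbol shape giving the replicate. Heterozygous 3 is the lowest array for both Stoml3 probe sets (-0.28 and -0.51) and for the mean of mature olfactory neuron markers (-0.16). It is the highest for the mean of olfactory bulb and brain neuron markers (0.87), taken over the 4 of 9 above the filter.

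Clcn3 encodes ClC-3, which exchanges chloride for protons across endosomal and vesicle membranes. It had 5 probe sets, all tested, with log2 differences from 0.02 to 0.27 and none past adjustment. The largest was at 1433487_at, which read 786.6, 693.8 and 619.6 in homozygous and 565.8, 665.3 and 496.7 in heterozygous arrays. Homozygous 1 and 2 lay above all heterozygous arrays, and homozygous 3 lay below heterozygous 2. The means were 700 ± 83.7 and 576 ± 84.8 (SD, n = 3 each), and the difference was 0.27 ± 0.12 (SE), with an interval from -0.0060 to 0.54 and a limma adjusted p of 0.872. Without heterozygous 3 the difference was 0.17, without heterozygous 2 it was 0.37, and without heterozygous 1 and 3 together it was 0.063.

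A probe set matched to the same accession gave other values. Probe set 1433486_at read 1086.5, 1151.3 and 1119.7 in homozygous and 1002.6, 1057.7 and 1263.5 in heterozygous arrays. Heterozygous 3 was the highest array there and the lowest at 1433487_at. The difference of 0.02 ± 0.10 (SE) turned to -0.046 without the library labelled heterozygous 1, to -0.0086 without heterozygous 2 and to -0.022 with a common median.

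The remaining probe sets of Clcn3 resembled 1433486_at in that the library labelled heterozygous 1 was the lowest array. Probe set 1416610_a_at, whose suffix marks transcript forms of 1 gene, read 968.6, 1105.2 and 1047.1 against 912.3, 985.2 and 1025.1, a log2 difference of 0.09 ± 0.09 (SE). Probe set 1438366_x_at read 2047.7, 1987.7 and 2005.6 against 1743.3, 1857.9 and 2107.7, a difference of 0.08 ± 0.08 (SE). Probe set 1441248_at read 260.1, 293.2 and 306.4 against 222.7, 229.8 and 314.8, a difference of 0.15 ± 0.14 (SE). Heterozygous 3 was above all homozygous arrays at 1438366_x_at and 1441248_at, so the groups overlapped. Leaving out the library labelled heterozygous 1 brought these differences to 0.046, 0.024 and 0.076, and leaving out heterozygous 3 to 0.13, 0.16 and 0.29.

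**Figure D3:**
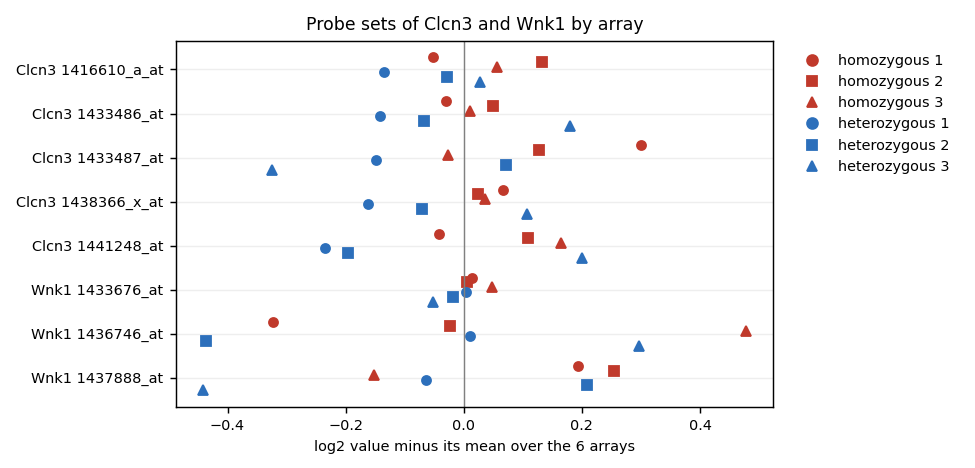
Log2 value minus its mean over the 6 arrays (horizontal axis) for the 5 probe sets of Clcn3 and the 3 of Wnk1, with red symbols for homozygous and blue for heterozygous arrays and the symbol shape giving the replicate. Heterozygous 3 (blue triangles) lies at -0.32 for Clcn3 1433487_at and at 0.18 for Clcn3 1433486_at, and Wnk1 1433676_at varies least.

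Slc4a1ap encodes kanadaptin, first described as a binding partner of the kidney anion exchanger and not itself a channel or transporter. Its probe set 1437758_a_at read 325.9, 293.8 and 319.9 in homozygous and 306, 367.1 and 288.1 in heterozygous arrays. Heterozygous 2 was the highest array and heterozygous 3 the lowest, and the homozygous values lay between them. The difference was -0.02 ± 0.12 on the log2 scale (SE), with an interval from -0.29 to 0.24. It turned to 0.016 without homozygous 2 and to 0.067 without heterozygous 2.

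**Figure D4:**
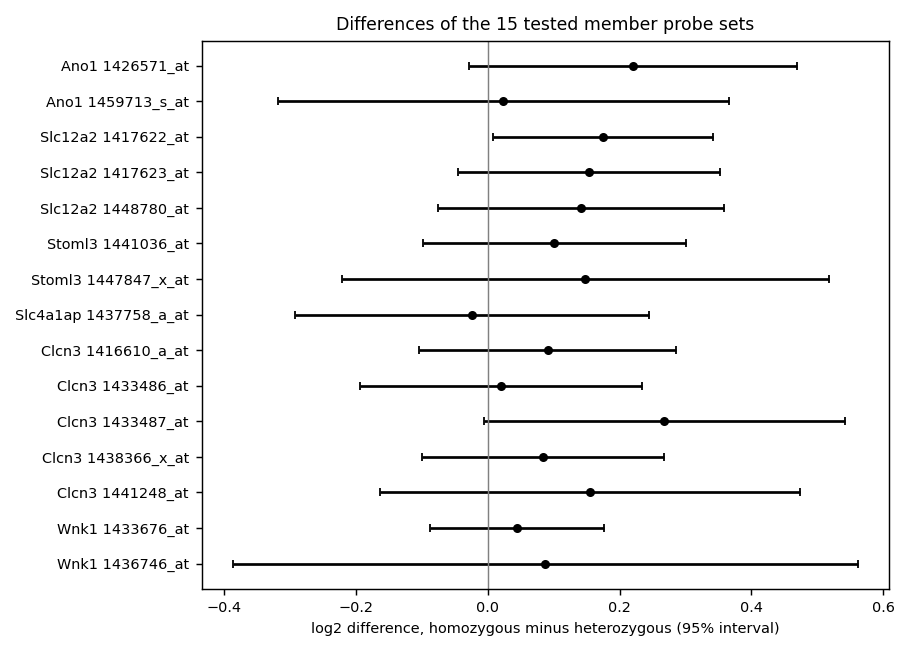
Log2 difference, homozygous minus heterozygous (horizontal axis), of the 15 tested probe sets, with points for the limma estimate and bars for its 95% interval from 3 arrays per group. The intervals of 14 probe sets include 0, and that of Slc12a2 1417622_at runs from 0.0084 to 0.34.

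These intervals bound the size of a difference that the arrays allow, with every label taken as given. At the brightest probe set of Wnk1 the 95% interval of the ratio of homozygous to heterozygous ran from 0.941 to 1.13. At 1417622_at of Slc12a2 it ran from 1.01 to 1.27. That Slc12a2 bound depends on the setting, since the unadjusted limma p was 0.108 without the intensity trend and 0.138 with a common median. At Stoml3 1441036_at the interval ran from 0.934 to 1.23, and at Stoml3 1447847_x_at from 0.857 to 1.43. The Stoml3 differences moved with the heterozygous array left out, as given above. At Clcn3 1433487_at and Ano1 1426571_at the upper bounds were 1.46 and 1.38. A wider interval, from 0.765 to 1.48, was left at Wnk1 1436746_at.

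The surrounding pathway was examined through lists of other genes, of which 107 probe sets for 57 genes were tested and 0 passed adjustment in limma. At an unadjusted p under 0.05, 7 were higher and 1 lower in homozygous arrays, beside 3.34% and 2.4% of all probe sets tested. Their median log2 difference was 0.06, beside 0.01 over all probe sets tested.

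Genes of odour transduction upstream of the chloride current had 26 probe sets for 11 genes, 21 above and 5 below 0. Their differences had a median of 0.20 and ranged from -0.37 to 0.41. At an unadjusted p under 0.05, 4 were higher and 0 lower. Camk2d, a calcium/calmodulin-dependent kinase gene, read 506.5, 474.2 and 472.3 against 401.2, 357.5 and 393.1 at 1459457_at, with no overlap and a difference of 0.31 ± 0.10 (SE). Gnal, the olfactory G protein alpha subunit gene, differed by 0.18 ± 0.07 at 1439957_at. It read 7676, 8228 and 7933.1 against 7715.3, 6970.3 and 6435.4, so the groups overlapped. Gnb1, a G protein beta subunit gene, differed by 0.41 ± 0.18 at 1454696_at, where it read 16894.2, 11990.5 and 8571.3 in the libraries labelled heterozygous 1, 2 and 3. At the other bright probe set of Gnb1, 1417432_a_at, the heterozygous arrays read 13639.6, 11187.2 and 9261.6 and the difference was 0.23 ± 0.11 (SE). Heterozygous 3 was the lowest array at both, and also at Gnal 1439957_at and the brightest probe sets of Adcy3, Ric8b, Gng13 and Cnga2. At Camk2d 1459457_at heterozygous 2 was the lowest. The part of heterozygous 3 in the median of the list was not tested. Without the library labelled heterozygous 1 and heterozygous 3 together, a choice made after seeing the data, Gnb1 1454696_at differed by 0.41 with a limma adjusted p of 0.0354 and was the only probe set of these lists to pass, while 1417432_a_at did not. That fit leaves 1 heterozygous array, which is assumed to vary like the homozygous ones.

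Relatives of the channel genes, and genes named for chloride channels, lay on both sides of 0. The list of other anoctamins and of genes that are, or are named for, chloride channels had 19 probe sets tested. Of these, 6 were above and 13 below 0, with a median of -0.016. In that list Ano6, a lipid scramblase and channel gene, read 1352.6, 885.6 and 893 against 850.6, 650.2 and 742.4 at 1455309_at, with no overlap and a difference of 0.44 ± 0.16 (SE). Ttyh3 differed by -0.59 ± 0.20 at 1454978_at, and Clns1a, listed here for its name only, by -0.011 and 0.16 at its brightest probe sets. The limma adjusted p of Ano6 and Ttyh3 was 0.859 each. Other ClC genes and their partners had 5 probe sets above and 5 below 0, with a median of 0.0054. Among them Clcn2, a plasma membrane chloride channel gene, differed by 0.22, Clcn6 by -0.12, Clcn5 by -0.0091 and Ostm1, the partner of ClC-7, by 0.086.

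Other cation-chloride cotransporters had 6 probe sets tested, 5 above and 1 below 0, with a median of 0.13 and none at an unadjusted p under 0.05. Slc12a4 and Slc12a7, which encode potassium-chloride cotransporters that carry chloride out of cells, differed by 0.24 ± 0.14 at 1417446_at and by 0.14 ± 0.10 at 1418257_at (SE). Slc12a7 differed by 0.098 at 1449011_at. WNK pathway kinases and partners had 7 of 17 probe sets above 0 and a median of -0.0030, and Sgk1, a kinase that acts on ion transport, differed by -0.10 and Cul3, of the ligase that removes WNK kinases, by 0.11 and 0.05.

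Bicarbonate and anion exchangers had 15 probe sets tested, 12 above and 3 below 0, with a median of 0.21. Slc4a4, a sodium bicarbonate cotransporter gene, read 1249, 1429.8 and 1259.7 against 1191.6, 1117.9 and 977.1 at 1434096_at, with no overlap and a difference of 0.25 ± 0.10 (SE). Slc4a8 differed by 0.26 ± 0.12 at 1423443_at, and Slc26a7 by -0.027. The limma adjusted p of Slc4a4 was 0.859 and that of Slc4a8 0.869. The largest difference of the list, 0.78 ± 0.43, belonged to Slc4a1 at 1434502_x_at, named here after its value was seen. Slc4a1 is the anion exchanger of red cells and read 945 in homozygous 1. Slc4a1 is itself 1 of the 4 red cell markers on the array, of 6 listed. The other 3, of which Epb42 lay below the filter, had sums of 551.1 to 951.5 in homozygous and 296.7 to 573.5 in heterozygous arrays. Their part in the Slc4a1 value was not tested.

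The sodium pump, which supplies the sodium gradient that NKCC1 uses, had 7 probe sets tested, 3 above and 4 below 0. Their differences ranged from -0.23 to 0.15. Atp1b1 differed by 0.12 at 1423890_x_at, -0.0019 at 1439036_a_at and 0.016 at 1418453_a_at, and Atp1b3 by 0.15. The stomatin relatives of Stoml3 had 7 of 7 probe sets above 0, with differences from 0.030 to 0.20. Stom differed by 0.20 ± 0.11 at 1449341_a_at, by 0.05 at 1438910_a_at and by 0.06 at 1419097_a_at, and Stoml2 by 0.08 ± 0.09 at 1448774_at. Heterozygous 3 was the lowest array at all 3 of these Stom probe sets, as it was at Stoml3.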

How the data were processed

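The authors deposited 1 linear intensity value per probe set and array, made with MAS5 per the submitters' processing notes; the sources used here give neither its version nor its settings. The 2% trimmed mean was 500 on every array, so no further scaling was applied. Genes were named from the platform annotation, which pairs 34958 probe sets with 1 gene, 932 with several and 9211 with none. Detection calls were not used. Symbols of the RefSeq table were used only to look up Ano2 under its older name.

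Before taking log2, an offset of 38.8 was added, which is the 25th percentile of all deposited values and understates differences of dim probe sets. Probe sets with a mean log2 value at or above the median over all were tested, 22514 after 64 controls were set aside. Homozygous and heterozygous arrays were compared in R 4.3.3 with limma 3.58.1, using a moderated variance with a trend on intensity, and Benjamini-Hochberg adjustment over all probe sets at 0.05, with 4 residual degrees of freedom. The script was tested on simulated data. The number of arrays limits the precision; the median SE was 0.11 on the log2 scale.

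All member probe sets are given; from each other list the text names the 2 tested probe sets with the lowest p and the 2 with the highest signal. For markers, the brightest probe set of each gene was used. The members and lists were chosen with earlier results of these data known. Alternatives were other offsets (156.6, the pooled median, and 1), scalings, filters, variance models, a replicate block, a threshold of 0.1 and each array left out in turn. Leaving out heterozygous 1 and 3 together was chosen after seeing the data.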

Additional observations from a re-analysis of the deposited data

How the results depend on the processing

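No member probe set passed adjustment under any alternative run, and 0 did with a threshold of 0.1. Over the whole array 1 probe set passed with the pooled-median offset, between 0 and 25 with 1 array left out, with 25 when the library labelled heterozygous 1 was dropped, and 30 with heterozygous 1 and 3 dropped together, where 1 probe set of the pathway lists passed. The count of member probe sets at an unadjusted p under 0.05, 1 as reported (Slc12a2 1417622_at), was 0 with a common median, 0 without the filter and 0 without heterozygous 1 and 3 together, and between 0 and 3 with 1 array left out. Without the trend and in the plain test it was again 1, but for Ano1 1426571_at. Filters, variance models and the block leave the estimates as they are; of 165 differences estimated anew under the other settings 12 changed sign. With a common median Ano1 1459713_s_at was -0.019 and Clcn3 1433486_at -0.022. With 1 array left out the ranges were -0.15 to 0.15 for Ano1 1459713_s_at, -0.012 to 0.19 for Stoml3 1441036_at, -0.071 to 0.34 for Stoml3 1447847_x_at, -0.089 to 0.067 for Slc4a1ap 1437758_a_at, -0.046 to 0.12 for Clcn3 1433486_at, -0.13 to 0.27 for Wnk1 1436746_at, 0.17 to 0.37 for Clcn3 1433487_at and 0.076 to 0.29 for Clcn3 1441248_at. The cause was not tested. The replicate numbers are shared by title only. Deviations of same-numbered arrays from their group means correlated over probe sets at 0.016, -0.12 and -0.047, and no array correlated best with its own number. With the replicate block 0 probe sets passed, and the 1 member probe set at an unadjusted p under 0.05 was Clcn3 1433487_at (0.0403) in place of Slc12a2 1417622_at (0.0542). Signals below the filter, as for Best2, leave no difference that can be read.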
